A study of Saccharomyces cerevisiae with 8 samples.

Results

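The 10 mRNAs described here encode the TORC1 kinase complex of Saccharomyces cerevisiae and its closest effectors. They were chosen by systematic name, though with earlier results of these data known, and are 10 of the 7126 features in the count table. All 10 were counted in every library and passed the filter on low counts, as did 6115 features in all. They are TOR1 (YJR066W), TOR2 (YKL203C), KOG1 (YHR186C), LST8 (YNL006W), TCO89 (YPL180W), SCH9 (YHR205W), TAP42 (YMR028W), SIT4 (YDL047W), NPR1 (YNL183C) and FPR1 (YNL135C).

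The study sequenced RNA of 50 to 100 nt from yeast grown in YPD, a rich medium, in 4 groups of 2 libraries. The groups were a wild-type strain with the normal UBC9 allele (WT) and a strain with the mutant allele ubc9-1, each with no treatment or with 100 nM rapamycin for 30 minutes. UBC9 encodes the enzyme that conjugates SUMO, a small protein tag, to its targets. Judging by its title, the study asks how TORC1 acts through SUMO on RNA polymerase III. The labels do not say whether replicates were separate cultures, so p-values measure only the spread between these libraries, which may be technical.

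TORC1 is a protein kinase complex that couples growth to nutrients. In rich medium it is active and promotes the making of ribosomes and tRNA. It does so in part by phosphorylating the kinase Sch9 and by keeping Tap42 bound to phosphatases of the PP2A family such as Sit4. Rapamycin enters the cell, binds the prolyl isomerase Fpr1, and the pair docks on Tor1 or Tor2 and inhibits TORC1. These controls act mostly on proteins already present, and the data here show fragments of the mRNAs.

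Because the selected RNA was far shorter than any of these mRNAs, the counts are counts of fragments, which can move apart from the amount of intact mRNA. In such bulk libraries, a change in RNA per cell and a change in the make-up of the culture cannot be told apart. The libraries held 14304014 to 21061460 assigned counts, and in each group the 2 libraries stood further apart than counting error alone would put them (chi-square over its degrees of freedom, 54.2 to 286). In WT, UBC9 itself gave 2 and 74 counts without drug and 79 and 114 with it, and in ubc9-1 it gave 307 and 554, then 221 and 298. As TMM-scaled CPM, explained with the levels, this is 0.178 to 4.10 in the WT libraries and 16.8 to 23.96 in those of ubc9-1, with no overlap. The strain of a library was read from its column name, in which m was taken as the mutant, ubc9-1 being the only strain beside WT.

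By exact matches of 50 bases, reads of the 10 genes can be told from those of other annotated genes. None overlaps another annotated feature, and no stretch of 50 bases in any of them occurs a second time in the R64 genome on either strand. This matters most for TOR1 and TOR2, which encode closely related kinases. TOR1 lies on chromosome X from 559416 to 566828 on the plus strand, and TOR2 on chromosome XI from 55935 to 63359 on the minus strand. The longest identical run of bases that the genes share is 19 nt, at chrX:562224-562242 in TOR1 and chrXI:60506-60524 in TOR2. Only identical stretches were searched for, so stretches that differ at a few bases were not examined. The shared run is shown from the R64 genome in the direction of the genes.
TOR1 and TOR2: attatgcatatttttcaaa

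The regions before the start codons of 3 of the genes are shown because they hold the sequence GATAAG. That sequence is bound by the GATA factors Gln3 and Gat1, which activate genes for poor nitrogen sources and which TORC1 restrains. The search covered the 300 bases before the start codon on both strands, so that CTTATC also counts, and the capitals mark the match. The bases come from the RefSeq R64 genome and read 5′ to 3′ in the direction of the gene. They span chrXIV:295510-295809 on the minus strand for NPR1, chrX:559116-559415 on the plus strand for TOR1 and chrXIII:327182-327481 on the plus strand for TAP42.
NPR1: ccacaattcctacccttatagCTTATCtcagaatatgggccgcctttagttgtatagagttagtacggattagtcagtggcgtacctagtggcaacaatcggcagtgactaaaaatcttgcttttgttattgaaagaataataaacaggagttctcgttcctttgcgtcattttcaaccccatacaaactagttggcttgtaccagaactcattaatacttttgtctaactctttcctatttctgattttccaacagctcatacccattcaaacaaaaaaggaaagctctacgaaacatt
TOR1: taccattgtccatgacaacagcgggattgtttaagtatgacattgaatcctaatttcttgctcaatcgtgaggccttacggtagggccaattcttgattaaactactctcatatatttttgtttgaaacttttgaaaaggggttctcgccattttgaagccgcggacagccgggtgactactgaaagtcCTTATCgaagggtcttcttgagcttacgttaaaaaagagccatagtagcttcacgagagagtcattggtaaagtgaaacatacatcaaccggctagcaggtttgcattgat
TAP42: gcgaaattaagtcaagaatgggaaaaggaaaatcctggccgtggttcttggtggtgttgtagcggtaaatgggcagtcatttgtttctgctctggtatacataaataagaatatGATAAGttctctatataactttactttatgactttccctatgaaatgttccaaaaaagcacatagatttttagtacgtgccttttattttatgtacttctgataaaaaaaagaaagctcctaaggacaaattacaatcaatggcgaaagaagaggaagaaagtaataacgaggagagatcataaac
The match starts 279 bases before the start codon of NPR1, 111 bases before that of TOR1 and 186 bases before that of TAP42. It is on the opposite strand in NPR1 and TOR1 and on the coding strand in TAP42. Of the same windows of 5987 protein-coding genes, 879 hold the sequence, which is 14.7%. A match is a description of the letters and not a bound site.

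Levels are given first per length, as CPM (counts in relation to the size of the library) scaled by TMM, which matches the bulk of features between libraries, per kilobase of gene. By the median over the 8 libraries FPR1 and SCH9 were the highest of the 10, at 13.8 and 13.6. NPR1 and SIT4 followed at 8.02 and 7.96. TOR1, TOR2 and LST8 lay near the median of 5619 protein-coding features, which was 4.53, with 5.21, 4.6 and 4.48. KOG1 at 3.37, TAP42 at 3.29 and TCO89 at 2.38 were the lowest. The ranges of neighbors in this order overlapped throughout, while those of some genes further apart did not. Every value of SCH9, from 11.7 to 14.2, lay above every value of KOG1, from 2.89 to 4.27, and of SIT4, from 4.64 to 9.42. The 5 subunit genes of the complexes therefore spanned from 2.38 for TCO89 to 5.21 for TOR1, and the rapamycin receptor gene FPR1 lay above them in the median.

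**Figure D1:**
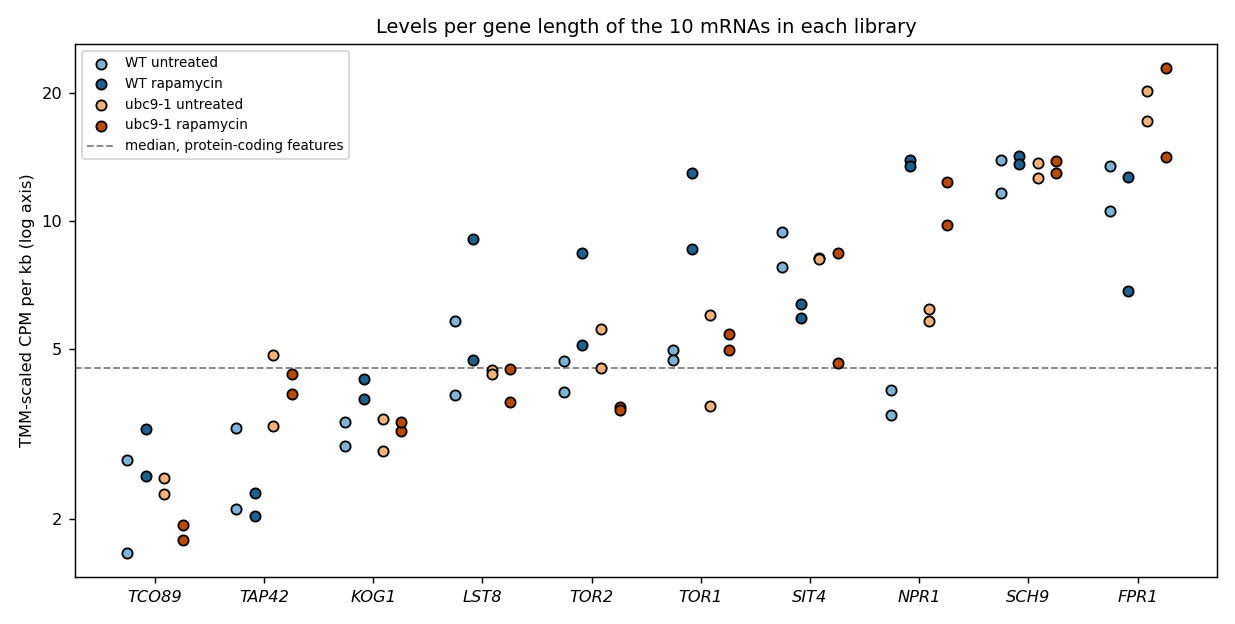
TMM-scaled CPM per kilobase of gene on a log axis for each of the 10 mRNAs, ordered by median, with 1 point for each of the 8 libraries colored by group. The dashed line is the median of protein-coding features, at 4.53; SCH9 stays between 11.7 and 14.2, while NPR1 runs from 3.51 to 13.9.

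How TORC1 inhibition bears on the mRNAs of its own pathway was compared first in WT. Counts of NPR1 and TOR1 fragments rose with rapamycin, 3.65-fold and 2.23-fold, and the other 8 mRNAs were not called. Differences were tested with the edgeR quasi-likelihood test over all 6115 features and called at a Benjamini-Hochberg adjusted p under 0.05. In this comparison 20.4% of all features were called, 8.77% as higher and 11.6% as lower, so 2 calls among 10 mRNAs is close to the share among all features. The median log2 fold change of the 10 was 0.38, against 0.04 over all features. Without replicate 2 of treated WT the median of the 10 was 0.19. Scaling by total counts moved the medians to 0.90 and 0.52, and changes are given relative to the TMM median unless that scaling is named.

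NPR1 encodes a kinase that TORC1 keeps inhibited and that controls the stability and activity of nitrogen permeases. Its scaled CPM were 9.52 and 8.32 in untreated WT and 33.1 and 32 in treated WT. In ubc9-1 they were 14.8 and 13.8 without drug and 23.3 and 29.3 with it. No group overlapped another: treated WT was highest, then treated ubc9-1, untreated ubc9-1 and untreated WT. The rise in WT was 1.87 on the log2 scale (SE 0.282, edgeR adjusted p = 0.00049), with both treated libraries above both untreated ones. It held without any 1 library, from 1.78 to 1.94, with an adjusted p of at most 0.00588.

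TOR1 encodes the Tor kinase that works only in TORC1. Its values were 36.8 and 34.9 in untreated WT and 96.1 and 63.8 in treated WT, while ubc9-1 had 44.5 and 27.3 without drug and 36.95 and 40.3 with it. Both treated WT libraries lay above the other 6. Among those, untreated ubc9-1 overlapped untreated WT and treated ubc9-1, which did not overlap each other. The rise in WT was 1.16 (log2, SE 0.333, edgeR adjusted p = 0.0253). This call was lost without replicate 1 or replicate 2 of untreated WT, where the value stayed at 1.17 and 1.12. It was also lost without replicate 1 of treated WT, where the value fell to 0.84. Each of these omissions left 1 library in its group.

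TOR2 encodes the kinase that can serve in TORC1 and is the only one in TORC2, a second complex that acts on the plasma membrane and the actin skeleton. Its values were 29.5 and 34.8 in untreated WT and 62.6 and 38.1 in treated WT. In ubc9-1 they were 41.4 and 33.6 without drug and 27.2 and 26.7 with it. Treated WT lay above untreated WT, and treated ubc9-1 below untreated ubc9-1, with no overlap in either strain. The difference in WT was 0.65 (log2, SE 0.31, edgeR adjusted p = 0.158) and was not called. It was 0.25 without replicate 1 of treated WT and 0.97 without replicate 2.

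The remaining subunits gave smaller values with no call. KOG1, which encodes the subunit that recruits substrates, had 15.8 and 13.9 in untreated WT and 19.95 and 17.8 in treated WT. These groups did not overlap, at a log2 difference of 0.35 (SE 0.274, edgeR adjusted p = 0.401). LST8, of a propeller-shaped subunit found in both complexes, had 3.56 and 5.32 without drug and 4.3 and 8.27 with it, and the groups overlapped (0.49, SE 0.409). TCO89, of a subunit found only in TORC1, had 6.59 and 3.99 without drug and 6.06 and 7.78 with it, and these overlapped too (0.40, SE 0.365). Over all 10 mRNAs 4 had both treated WT libraries above both untreated ones and 1 had both below; the same shares among all features were 32.2% and 28.0%.

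Among effectors other than NPR1, SCH9 varied least. It encodes the kinase that TORC1 phosphorylates directly and that in turn restrains Maf1, the repressor of RNA polymerase III. Its values were 28.8 and 34.4 in untreated WT and 35.2 and 33.7 in treated WT. In ubc9-1 they were 31.2 and 33.8 without drug and 32 and 34.3 with it. All groups overlapped, and the highest library was 1.22-fold above the lowest. The log2 difference in WT was 0.12, with a 95% interval of -0.46 to 0.70. At this number of libraries the data allow any change within that interval.

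The phosphatase branch gave low counts and no call. TAP42, which encodes the regulator that TORC1 keeps bound to the phosphatases, had 26 to 84 counts in a library. Its scaled values were 2.31 and 3.61 in untreated WT and 2.24 and 2.54 in treated WT, while ubc9-1 had 5.34 and 3.63 without drug and 4.33 and 4.81 with it. SIT4, which encodes the catalytic subunit of one such phosphatase, had 7.30 and 8.82 in untreated WT and 5.55 and 5.98 in treated WT, where the groups did not overlap (-0.49, SE 0.354, edgeR adjusted p = 0.365). In ubc9-1 SIT4 had 7.68 and 7.61 without drug and 7.89 and 4.35 with it. FPR1, whose product is the receptor of the drug, had 3.65 and 4.66 in untreated WT and 2.37 and 4.38 in treated WT. In ubc9-1 they were 5.94 and 6.96 without drug and 7.89 and 4.87 with it. For both FPR1 and TAP42 every ubc9-1 library lay above every WT library, for TAP42 only just, at 3.63 against 3.61. How many of all features did so was not counted. Of all features, 24.8% had both ubc9-1 libraries above both WT libraries without drug, and 27.2% with drug.

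**Figure D2:**
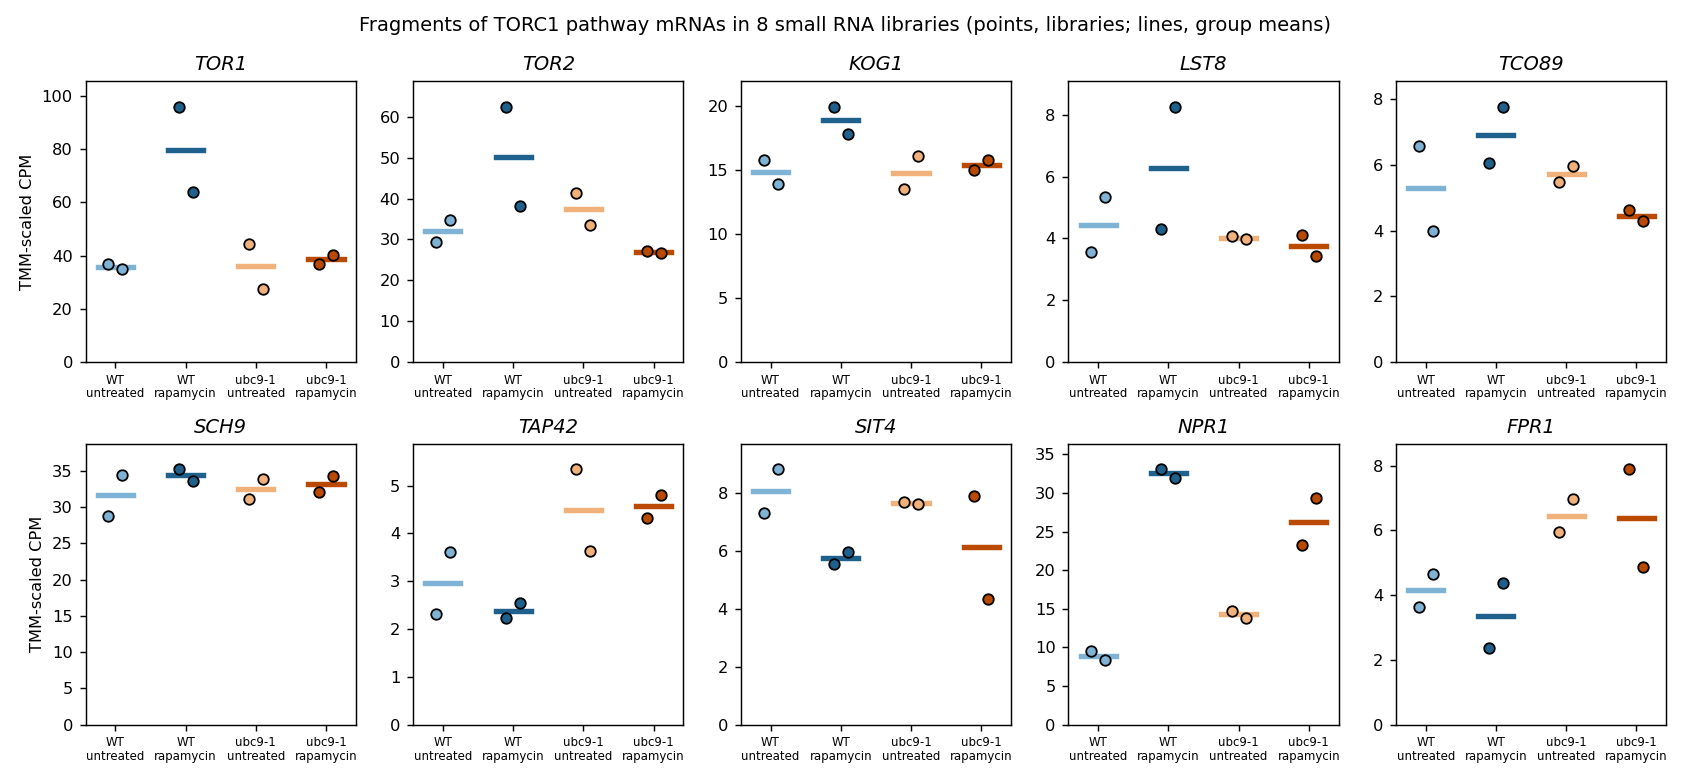
TMM-scaled CPM (vertical axes from 0) of the 10 mRNAs, with 1 point per library and a line at each group mean, for WT and ubc9-1 without and with rapamycin. NPR1 separates all 4 groups, TOR1 is high only in the treated WT libraries (96.1 and 63.8), and SCH9 stays between 28.8 and 35.2.

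The drug was also given to ubc9-1, the strain with the mutant SUMO enzyme. None of the 10 mRNAs was called by edgeR, with 1, NPR1, at an unadjusted p under 0.05, and none by DESeq2; among all features 1.49% were called, 0.834% as higher and 0.654% as lower. NPR1 was at 0.88 on the log2 scale (SE 0.273, edgeR adjusted p = 0.184), with both treated libraries above both untreated ones. TOR1 was at 0.11 (95% interval -0.60 to 0.82), TOR2 at -0.47 (SE 0.311, edgeR adjusted p = 0.735) and TCO89 at -0.36. The other 6 lay between -0.32 for SIT4 and 0.06 for KOG1, and the median of the 10 was 0.00. Beside NPR1, which was above, TOR2 and TCO89 did not overlap between the groups and were below; the shares among all features were 19.7% above and 19.7% below.

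Whether the response differed between the strains was tested by the interaction, in which a negative value means a lower log2 change with the drug in ubc9-1. No member was called by edgeR or DESeq2, while 3 had an unadjusted edgeR p under 0.05, and 0.164% of all features were called, 0.131% as higher and 0.0327% as lower. These 3 were TOR2 at -1.12 (SE 0.439, edgeR adjusted p = 0.285), TOR1 at -1.05 (SE 0.467, edgeR adjusted p = 0.331) and NPR1 at -0.99 (SE 0.387, edgeR adjusted p = 0.285). The call of NPR1 and TOR1 in WT and its absence in ubc9-1 therefore do not show that the responses differ. The other 7 ranged from -0.76 for TCO89 to 0.36 for TAP42. The comparisons share libraries, so their values are not independent of each other.

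**Figure D3:**
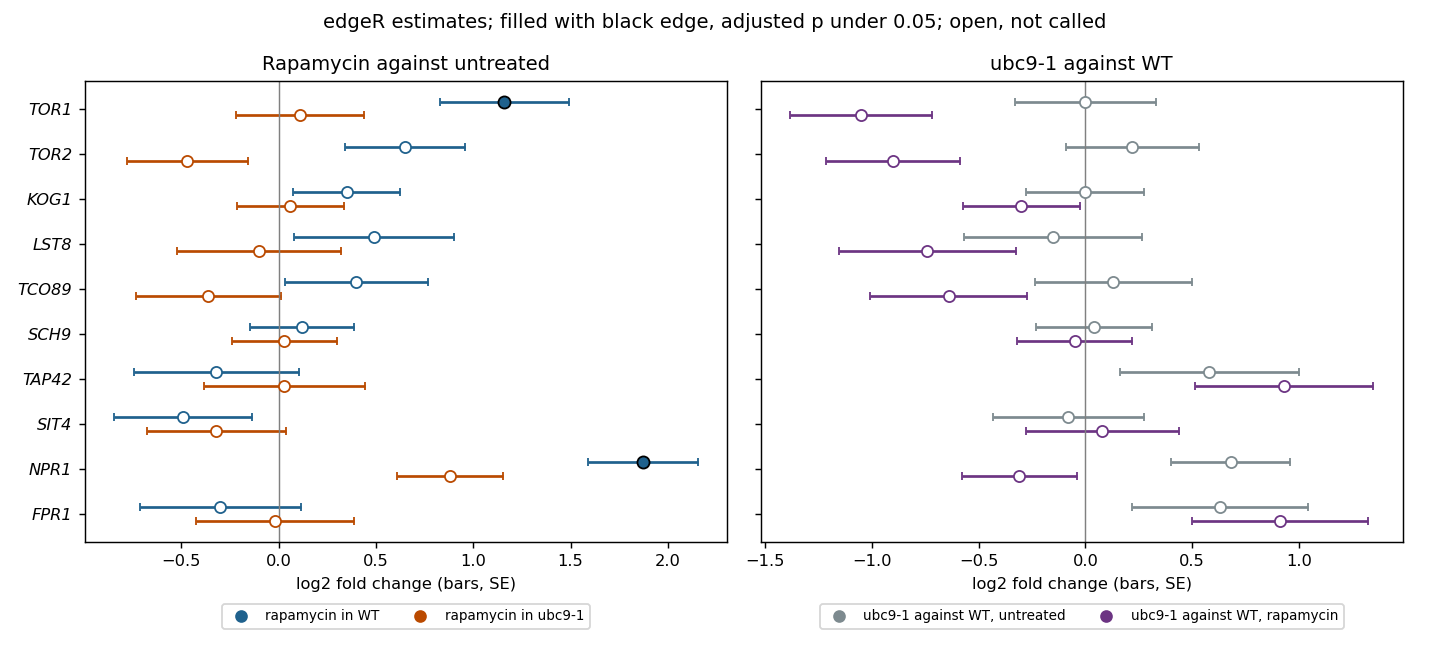
edgeR log2 fold changes with standard errors for the 10 mRNAs, rapamycin against untreated in each strain (left) and ubc9-1 against WT without and with rapamycin (right). Filled points, which are NPR1 at 1.87 and TOR1 at 1.16 for rapamycin in WT, had an adjusted p under 0.05; open points did not.

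The strains were then compared at the same treatment. Without drug no member was called by edgeR or DESeq2, with 1 at an unadjusted edgeR p under 0.05, against 4.69% of all features called, 2.29% as higher and 2.4% as lower. That member was NPR1, at 0.68 (log2, SE 0.279, edgeR adjusted p = 0.163), and FPR1 and TAP42 were at 0.63 and 0.58. For these 3 both ubc9-1 libraries lay above both WT libraries, as for 24.8% of all features. The other 7 lay between -0.15 for LST8 and 0.22 for TOR2.

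With drug no member was called by edgeR or DESeq2 either, with 4 at an unadjusted edgeR p under 0.05 and 2.01% of all features called, 1.24% as higher and 0.769% as lower. TOR1 was at -1.05 (SE 0.332, edgeR adjusted p = 0.115) and TOR2 at -0.90 (SE 0.312, edgeR adjusted p = 0.145), while TAP42 was at 0.93 (SE 0.418) and FPR1 at 0.91 (SE 0.411), both with an edgeR adjusted p above 0.26. When only protein-coding features entered the fit, TOR1 was called, at -1.10 (edgeR adjusted p = 0.0433). With replicate number as a block TOR1 and TOR2 were called, at -1.01 and -0.88, though same-numbered libraries are known to share only the number. In 6 of the 10 both ubc9-1 libraries lay below both WT libraries and in 2 above, where 27.2% of all features lay below and 27.2% above. Every gene of a TORC1 subunit was among the 6, along with NPR1 at -0.31.

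Over all protein-coding features the differences between groups also moved with gene length. In the same comparison the median log2 difference was 0.39 over the shortest of 5619 protein-coding features, the 1416 of 78 to 786 nt, and -0.20 over the longest, the 1403 of 1938 nt or more. For rapamycin in WT the medians were -0.17 and 0.27, and over the 148 features at least as long as KOG1 (4674 nt) the median was 0.41. In ubc9-1 the medians for rapamycin were -0.01 over the shortest and 0.00 over the longest. TOR1 and TOR2, at 7413 and 7425 nt, are the longest of the 10, and FPR1, at 345 nt, is the shortest. The part of length in these values was not tested. For rapamycin in WT the short FPR1, SIT4 (936 nt) and TAP42 (1101 nt) were at -0.30, -0.49 and -0.32. Between the strains with drug they were at 0.91, 0.08 and 0.93. LST8, at 912 nt, was at 0.49 and -0.74 in these comparisons, with no call (edgeR adjusted p = 0.435 and 0.373). Without replicate 2 of treated WT the LST8 value for rapamycin in WT was -0.05. The medians of the 1792 features no longer than LST8 were -0.15 for rapamycin in WT and 0.32 between the strains with drug.

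**Figure D4:**
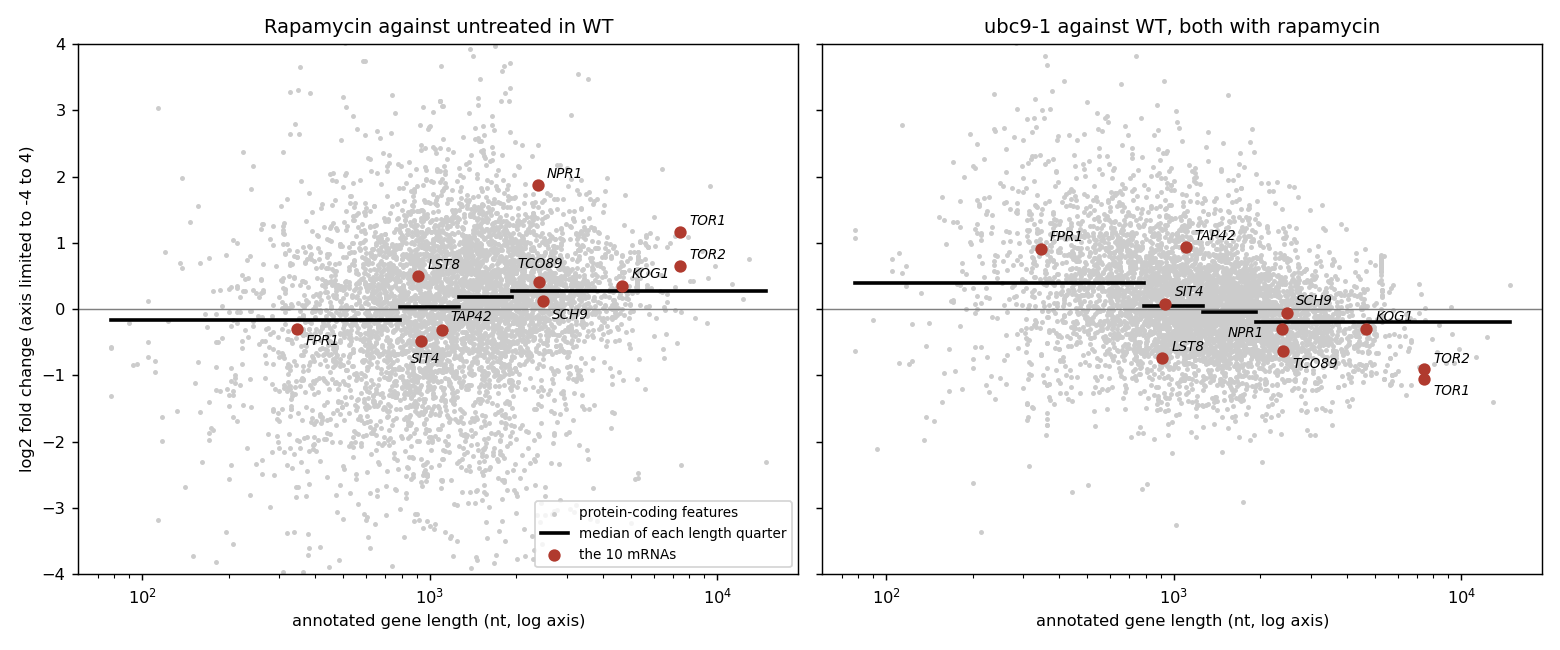
Log2 fold change (vertical; 59 and 22 features lie beyond the axis) against annotated gene length (log axis) for protein-coding features in grey and the 10 mRNAs in red, for rapamycin in WT (left) and ubc9-1 against WT under rapamycin (right). Black lines are medians of 4 length classes; they climb from -0.17 to 0.27 on the left and drop from 0.39 to -0.20 on the right.

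The pathway around the 10 mRNAs was described with 6 lists of 71 genes, of which 70 were tested. With rapamycin in WT 7 rose and 4 fell, and their median was 0.20. The 11 calls are 15.7% of the 70, beside 20.4% of all features (8.77% higher and 11.6% lower), and the 4 that fell are 5.71%. In ubc9-1 none was called by edgeR or DESeq2, and the median was 0.03. Without replicate 2 of untreated ubc9-1, 1 of the 70 was called there, NPR3, of the same complex as IML1 (2.55, edgeR adjusted p = 0.0284). Among 14 tested genes upstream of TORC1 2 rose and none fell, with a median of 0.51. Without replicate 1 of untreated WT that median was 0.13, and with scaling by total counts it was 0.94. IML1, of a complex that turns TORC1 off when amino acids are scarce, rose by 1.26 (log2, SE 0.286, edgeR adjusted p = 0.00664), from 15.04 and 10.8 scaled CPM to 31.2 and 30.5. In ubc9-1 IML1 was at 1.07 (SE 0.288, edgeR adjusted p = 0.108), and the interaction was -0.20. PIB2, of a vacuolar protein that helps to activate TORC1, rose by 1.03 (edgeR adjusted p = 0.0256). The genes of the Gtr GTPases, through which amino acids signal to TORC1, had no call, with GTR1 at -0.21 and GTR2 at -0.52.

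The list median of the 9 genes of TORC2 and its effectors was 0.14 for rapamycin in WT. Of these genes 1 was called, beside 20.4% of all features. It was YPK2, of a kinase downstream of TORC2, whose values were 7.39 and 2.77 in untreated WT and 23.0 and 21.2 in treated WT, while ubc9-1 had 16.5 and 13.3 without drug and 20.03 and 16.2 with it. Untreated WT was the low group. YPK2 rose by 2.15 in WT (SE 0.396, edgeR adjusted p = 0.00186) and, with no drug, stood 1.58 above WT in the ubc9-1 libraries (SE 0.394, edgeR adjusted p = 0.0388). In the main edgeR fit YPK2 was the only 1 of the 70 genes called between the strains. Among all features 4.69% were called between the strains without drug and 2.01% with drug. DESeq2 called 4 of the 70 without drug and 2 with drug, which is 5.71% and 2.86%. Of all 6115 features it called 583 without drug and 340 with drug. The rapamycin value of YPK2 in ubc9-1 was 0.28, and the interaction was -1.87 (edgeR adjusted p = 0.166).

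Of 15 genes of the phosphatase branch 1 rose and 1 fell, and both encode proteins that bind Sit4. Among all features 8.77% were called higher and 11.6% lower for rapamycin in WT. SAP4 rose by 1.36 (SE 0.407, edgeR adjusted p = 0.03), from 18 and 42 counts to 112 and 156, and SAP185 fell by 1.26 (SE 0.28, edgeR adjusted p = 0.00607), from 29.8 and 22.6 scaled CPM to 11.4 and 10.4. The partners SAP155 and SAP190 were at 0.19 and 0.04 with no call. TIP41, of a protein that binds Tap42, was at 0.79 (edgeR adjusted p = 0.327).

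Of 13 kinases and regulators on the Sch9 branch and at ribosomal genes 1 rose and 2 fell, with a median of -0.22. The shares of all features for rapamycin in WT were 8.77% called higher and 11.6% called lower. TOD6, a repressor of genes for making ribosomes, fell by 3.46 (SE 0.479, edgeR adjusted p = 0.000276), from 132 and 233 counts to 14 and 46. IFH1, a coactivator of ribosomal protein genes, fell by 1.04 (edgeR adjusted p = 0.0125), and STB3, another repressor of genes for making ribosomes, rose by 1.33 (edgeR adjusted p = 0.0245). DOT6, the paralog of TOD6, was at -0.22, and MAF1 at -0.14, with no call. In ubc9-1 TOD6 was at -1.69 (edgeR adjusted p = 0.122).

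In WT 20.4% of all features were called with the drug, 8.77% as higher and 11.6% as lower. Of 9 autophagy and permease effectors PAR32 was the 1 called. It encodes a protein that inhibits ammonium transporters and is controlled through Npr1, and it rose by 1.27 in WT (SE 0.332, edgeR adjusted p = 0.0153), from 4.81 and 4.33 to 9.63 and 12.3. In ubc9-1 it was at 0.04, with 5.07 and 5.36 without drug and 5.77 and 5.01 with it. ATG13, of the autophagy regulator that TORC1 phosphorylates, was at 1.32 in WT with no call (edgeR adjusted p = 0.0532), and it was called under 9 of the 15 alternatives. Of 10 prolyl isomerases related to FPR1 or to cyclophilin CPR2 rose by 1.24 (edgeR adjusted p = 0.0399) and FPR4, a nuclear relative of FPR1, fell by 1.66 (SE 0.294, edgeR adjusted p = 0.00148). PAR32 and IFH1 each overlap 1 other feature, and reads in such overlaps were not assigned.

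Of these 12 calls on 11 list genes, those of IML1, TOD6 and YPK2 for rapamycin in WT held under all 15 alternatives. PIB2 was not called without any 1 of the 4 WT libraries (0.87 to 1.18). CPR2 was not called without any 1 of the WT or treated ubc9-1 libraries (0.91 to 1.52). SAP4 lost its call under 7 alternatives, among them the omission of replicate 1 of untreated WT (1.11, edgeR adjusted p = 0.122) and of either treated WT library. STB3 lost it without replicate 2 of untreated WT or either treated WT library, PAR32 without replicate 2 of untreated or of treated WT (1.20 and 1.08), and IFH1 without either treated WT library. SAP185 lost it without replicate 2 of treated WT (-1.19). With scaling by total counts SAP185, IFH1 and FPR4 were at -0.75, -0.58 and -1.21 with no call. The strain difference of YPK2 lost its call under 9 of 15 alternatives, and without replicate 2 of untreated WT it was 1.01 (edgeR adjusted p = 0.122).

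**Figure D5:**
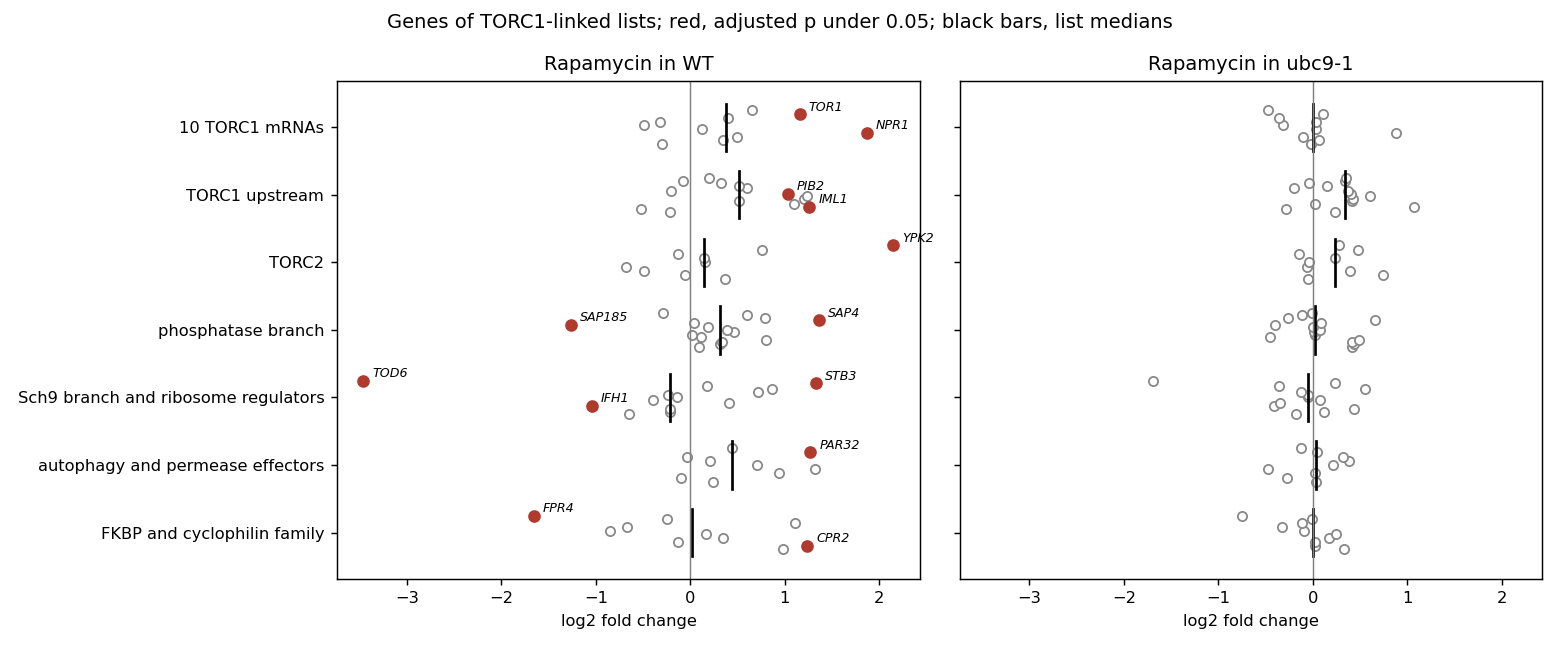
Log2 fold changes for rapamycin in WT (left) and in ubc9-1 (right) of the 10 mRNAs and the 70 tested genes of 6 related lists, 1 point per gene, with list medians as black bars. Red points, with an adjusted p under 0.05, number 2 of the 10 and 11 of the 70 in WT and none in ubc9-1. Among all features 20.4% were called in WT and 1.49% in ubc9-1.

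The genes that ran most like the members with the widest range over the groups, NPR1 and TOR1, were taken by the Pearson r of log2 CPM over the 8 libraries among 4191 protein-coding features. For NPR1 they were DAL2 (r = 0.991), an enzyme of allantoin use, YBR287W (r = 0.98) and PTR2 (r = 0.979), a peptide transporter. DAL2 and PTR2 rose with rapamycin in both strains, by 5.31 and 3.66 in WT and by 3.29 and 2.54 in ubc9-1, with an edgeR adjusted p of at most 0.00239. YBR287W rose by 1.67 in WT (edgeR adjusted p = 0.00104) and was at 0.66 in ubc9-1. For TOR1 they were STU1 (r = 0.974), a microtubule-binding protein of the spindle, FCY21 (r = 0.97), a putative purine-cytosine permease, and VHC1 (r = 0.967), a cation-chloride cotransporter of the vacuole. Of these VHC1 and FCY21 rose in WT, by 1.94 and 1.21 (edgeR adjusted p = 0.00446 and 0.0142), STU1 was at 0.61, and none was called in ubc9-1. Of the 1538 stretches of 50 bases in FCY21 29 occur elsewhere in the genome. Among the members themselves TOR1 and TOR2 had the highest r, at 0.788, followed by TAP42 and FPR1 at 0.745. The lowest were SIT4 and NPR1 at -0.756 and TOR1 and FPR1 at -0.75. The part of gene length in these values was not tested. The libraries differ in depth and composition, which all these values share.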

How the data were processed

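Small RNA of 50 to 100 nt was sequenced in 8 libraries. The authors deposited whole-number counts of fragments per gene. TopHat2 2.0.13, featureCounts 1.4.6-p3 and build R64 come from the submitters' processing notes. Per the file headers, fragments were counted by gene, multi-mapping reads included, without strand and without assigning reads in overlapping genes. Gene names and coordinates came from R64; 6036 of 6048 matched features had the same coordinates.

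Differences were tested with edgeR 4.0.16 in R 4.3.3 on all 8 libraries, 1 coefficient per group, TMM, filterByExpr with a minimum count of 10, and Benjamini-Hochberg adjustment over 6115 features. SE was taken from F and the log2 fold change. Intervals use 13.8 degrees of freedom. Scaled CPM are counts over TMM-scaled totals. DESeq2 1.42.0 was run without independent filtering. The edgeR code for rapamycin in WT was checked on simulated counts with large changes and the same spread for every gene. That check does not cover smaller changes or the spread between these libraries. The deposited normalized table was not used.

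The 10 genes and the lists were chosen with earlier results of these data known, so they give no independent support. From each list, up to 2 called genes per direction and comparison with a mean count of at least 50 were named; GTR1, GTR2, SAP155, SAP190, TIP41, DOT6, MAF1 and ATG13 were added after their values were seen. Alternatives were other scalings, no filter, DESeq2, fewer groups, protein-coding features, a replicate block and each library left out; a lone library was assumed to vary like the other groups.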

Additional observations from a re-analysis of the deposited data

Results flagged for a closer look

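TOR2 is listed here because its libraries lay on opposite sides in the strains: both treated libraries lay above both untreated ones in WT and below them in ubc9-1. The difference of the responses was -1.12 (log2, SE 0.439), which the edgeR interaction test did not call (adjusted p = 0.285). Without 1 library at a time it ran from -1.44 to -0.73, and with scaling by total counts it was -1.52. In WT 32.2% of all features had both treated libraries above, and in ubc9-1 19.7% had both below. How many features did both was not counted. Over the 1416 protein-coding features of 78 to 786 nt the median difference of the responses was 0.16. Over the 1403 of 1938 nt or more it was -0.25, and over the 148 of at least 4674 nt it was -0.4. TOR2 has 7425 nt, and the part of length in its value was not tested.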

How the results depend on the processing

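NPR1 in WT kept its call under every alternative run, from 1.78 to 2.36, the latter with scaling by total counts. TOR1 in WT kept it under all but the 3 omissions named above, from 0.84 to 1.61. No member was called for rapamycin in ubc9-1, the strains without drug or the interaction under any alternative.

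Some list genes with no call for the drug in WT gained one: RIM15 under 7 alternatives, NPR3 under 4, CPR1 under 3, ATG1 under 2, and BUL1, FPR2, MEH1 and YPK1 under 1 each.

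Among 10 members, 1 to 2 were called in WT without 1 library. For the strains with drug 1 was called with protein-coding features only and 2 with the replicate block.

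Of 740 values of single members under alternatives 40 changed sign, none of them called. With total counts scaling TAP42 was 0.10 for the drug in WT, FPR1 0.18 for the drug in WT, SCH9 -0.01 for the drug in ubc9-1, SIT4 0.05 for the strains without drug, SIT4 -0.29 for the strains with drug, TAP42 -0.03 for the interaction, SIT4 -0.34 for the interaction and FPR1 -0.27 for the interaction. With DESeq2 size factors in edgeR FPR1 was 0.01 for the drug in ubc9-1 and SCH9 -0.01 for the strains without drug. With the DESeq2 test FPR1 was 0.01 for the drug in ubc9-1 and SCH9 -0.01 for the strains without drug. With protein-coding features only SCH9 was -0.01 for the strains without drug. Without 1 library at a time, the ranges for the drug in WT were -0.03 to 0.26 for SCH9, -0.62 to 0.05 for TAP42, -0.81 to 0.08 for FPR1 and -0.05 to 0.89 for LST8. Without 1 library at a time, the ranges for the drug in ubc9-1 were -0.05 to 0.19 for KOG1, -0.03 to 0.09 for SCH9, -0.21 to 0.51 for TOR1, -0.23 to 0.34 for TAP42, -0.40 to 0.28 for FPR1, -0.23 to 0.01 for LST8 and -0.81 to 0.03 for SIT4. Without 1 library at a time, the ranges for the strains without drug were -0.08 to 0.18 for SCH9, -0.41 to 0.18 for LST8, -0.20 to 0.52 for TCO89 and -0.21 to 0.07 for SIT4. Without 1 library at a time, the ranges for the strains with drug were -0.09 to 0.02 for SCH9 and -0.38 to 0.47 for SIT4. Without 1 library at a time, the ranges for the interaction were -0.24 to 0.05 for SCH9, -0.02 to 0.66 for TAP42, -0.10 to 0.79 for FPR1 and -0.32 to 0.52 for SIT4.

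Features called numbered 1248 for the drug in WT, 91 for it in ubc9-1, 287 and 123 for the strains without and with drug, and 10 for the interaction. Without 1 library they ranged from 566 to 1383, 22 to 111, 91 to 226, 2 to 226 and 4 to 31. The low values for the strains with drug, 4 and 2, came without replicate 1 or 2 of treated WT. With scaling by total counts they were 42, 124, 27 and 5 from the second comparison on, and the split of the WT response turned from 536 higher and 712 lower to 583 and 265, of the ubc9-1 response from 51 and 40 to 37 and 5, for the strains with drug from 76 and 47 to 9 and 18, and for the interaction from 8 and 2 to 5 and 0. DESeq2 called 139, 583, 340 and 126 from the second comparison on. Without the filter 465 and 257 were called for the strains and 52 for the interaction; with only the compared groups 86 and 278 for the strains; with protein-coding features 324 for the strains with drug; with DESeq2 size factors 5 for the interaction. The causes were not tested.

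The replicate numbers share only a number, and deviations of same-numbered libraries correlated across features at 0.104 to 0.204. With replicate number as a block 1887, 246, 1012, 654 and 395 features were called in the same order; TOR1 and TOR2 were then called for the strains with drug, at -1.01 and -0.88, and FPR1 for rapamycin in ubc9-1 was at 0.01. Of the 70 list genes 19 were called for the drug in WT, and IML1 (1.07) and TOD6 (-1.68) in ubc9-1. Between the strains 10 of the 70 were called without drug and 4 with it.

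With 2 libraries a group and 26 to 84 counts of TAP42 in a library, small changes were not detectable.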
